A study of Mus musculus with 12 samples.

Results

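The transcripts of 10 antioxidant enzymes that remove superoxide and peroxides were examined in mouse liver: the superoxide dismutases Sod1, Sod2 and Sod3, catalase (Cat), the glutathione peroxidases Gpx1 and Gpx4, and the peroxiredoxins Prdx1, Prdx3, Prdx5 and Prdx6. They were chosen by gene symbol, and each symbol matched 1 of the 18560 rows of the expression table. All 10 were among the 11514 genes with enough signal to be tested, defined as at least 1 FPKM in at least 3 libraries. FPKM, fragments per kilobase of transcript scaled to the mapped fragments of the library, is corrected for transcript length. Levels can be set side by side between genes on this scale, though a trend with transcript length remained in some libraries, as given below. Poly(A) RNA was sequenced from livers of mice aged 12 months in 12 libraries, 3 from each of 4 groups. The groups were wild-type males, OXR1A-deficient males (genotype OXR1A-/-, called knockout here), wild-type females and OXR1A-deficient females, with no treatment named in the labels. OXR1A is a long isoform of OXR1, a TLDc domain protein that protects cells from oxidative damage. The labels give neither strain nor breeding scheme, and do not say that each sample of a group is a different animal. The p-values therefore describe the spread among these samples only, part of which may be technical.

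Superoxide arises where oxygen takes up single electrons, mainly at the mitochondrial respiratory chain, at NADPH oxidases and at some other oxidases. Superoxide dismutases convert it to oxygen and hydrogen peroxide, SOD1 in the cytosol and the space between the mitochondrial membranes, SOD2 in the mitochondrial matrix and SOD3 outside the cell. Hydrogen peroxide is then broken down by catalase, which in liver sits in peroxisomes, by glutathione peroxidases at the expense of glutathione, and by peroxiredoxins, most of which are recharged by thioredoxin. Hepatocytes are rich in these enzymes, since their peroxisomes and mitochondria burn fatty acids and make hydrogen peroxide as they do so.

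GPX1 and GPX4 differ from the other 8 enzymes in their active site, which holds selenocysteine, an amino acid encoded by a UGA codon that otherwise stops translation. The coding sequences around this codon are shown because the ratio of these transcripts differed between the sexes in the results that follow. They are read 5′ to 3′ from GENCODE mouse release M21, with the selenocysteine codon (TGA in DNA letters) in capitals.
Gpx1: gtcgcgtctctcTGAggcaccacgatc
Gpx4: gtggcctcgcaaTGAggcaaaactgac
In Gpx1 this is codon 47 of 201, in coding sequence on the plus strand of GRCm38 chromosome 9 at 108339451 to 108339453. In the longest Gpx4 coding sequence it is codon 129 of 253, on the plus strand of chromosome 10 at 80054737 to 80054739. Both codons are followed by a glycine codon, ggc. The other 8 members have no annotated selenocysteine, so by definition their coding sequences hold 0 in-frame TGA codons before their stop.

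Promoters were searched for TGACNNNGC, the core letters of the antioxidant response element bound by NRF2 (gene Nfe2l2), the factor that turns on many antioxidant genes. The search covered both strands of the 250 bases before each RefSeq start site in GRCm38.p6, and a promoter was counted once however many matches it held. Of the 10 members, 8 matched a promoter entry by symbol, all but Sod3 and Prdx6, and 2 of the 8 held a match, against 3338 of 32851 promoters in all (10.2%). The matches are printed 5′ to 3′ on the plus strand with the motif in capitals, where it appears as its reverse complement, and both genes lie on the plus strand.
Prdx1: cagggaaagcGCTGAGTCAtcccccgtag
Sod1: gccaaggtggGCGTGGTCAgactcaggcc
The Prdx1 stretch lies at chr4:116685456-116685484, with the motif beginning 133 bases before the start site. The Sod1 stretch lies at chr16:90220696-90220724, with the motif beginning 56 bases before the start site. A match describes these letters and is no evidence of binding. Nfe2l2 itself had a log2 difference of 0.43 (SE 0.14, limma adjusted p = 0.0974) between knockout and wild-type males, and 0.19 (adjusted p = 0.502) after median-ratio scaling between libraries.

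Summed over a library, FPKM came to 526203 to 667434, and read numbers were not used here, so the depth behind each value is unknown. Wild-type male 2 stood apart: the slope of its log2 deviations on log2 transcript length was -0.210, which means that long transcripts were scarce in it. Knockout female 2 had -0.089, knockout male 3 had -0.078, and the remaining 9 libraries lay between -0.003 and 0.119. Traces of transcripts of the other sex were seen in 3 libraries: knockout male 3 had 0.82 FPKM of Xist, and wild-type female 1 and knockout female 1 had 1.89 and 0.85 FPKM of the Y-linked Eif2s3y. The labelled tissue was checked against 6 hepatocyte marker genes, which were present in every library. They summed to 43560 to 45359 FPKM in the 3 knockout males, below each of the other 9 libraries (50014 to 60743). Most of each sum was Alb, with means of 33284 FPKM in knockout males and 42195 in wild-type males. Between the male groups 0 of the 6 genes were called, with a median log2 difference of -0.43 (scaled -0.67). Of the 6, 5 had a negative difference and 1 a positive one, Apob (means of 452 FPKM in knockout and 366 in wild-type males). Oxr1, measured over all its isoforms, differed by 0.41 (SE 0.18, limma adjusted p = 0.204) on the log2 scale between knockout and wild-type males and by 0.13 (SE 0.18, adjusted p = 0.938) between the female groups. This value does not check the loss of the OXR1A isoform.

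Differences are given on the log2(FPKM + 1) scale from limma, fitted to all 11514 tested genes and all 12 libraries, with Benjamini-Hochberg adjusted p-values over all tested genes. A gene was called at an adjusted p under 0.05. The median of all tested genes was not at 0 in every comparison. It was 0.19 for knockout against wild-type males, -0.21 for males against females in wild type and 0.20 for the interaction of knockout and sex, against 0.00 for the female groups and -0.01 for the sexes in knockout. Differences after median-ratio scaling, which sets the typical gene close to 0, are therefore given as scaled values beside the unscaled ones.

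Gpx1, Cat and Sod1 were the most abundant of the 10 transcripts in every group. Over all 12 libraries they averaged 1466, 1431 and 1246 FPKM, ranks 54, 55 and 60 among all genes of the table, and together they made up 68.3% to 76.7% of the FPKM of the 10 members. Prdx1 followed at 634 FPKM (rank 102), and then Gpx4 at 278 (rank 277), Prdx5 at 255 (rank 309) and Prdx6 at 182 (rank 434). Prdx3, at 73.0 FPKM (rank 951), Sod2, at 51.1 (rank 1264), and Sod3, at 18.8 (rank 2760), were the least abundant. All 10 members together made up 0.865% to 1.14% of a library's FPKM.

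The order of the levels was the same in the 4 groups at its lower end, and it changed between neighbours that overlapped at its upper end. In every group Prdx1 was lower than the 3 leading genes in each library, and the ranking Prdx6, Prdx3, Sod2, Sod3 held with no overlap between the ranges of neighbours. Among the 3 leading genes the ranges of Cat, Sod1 and Gpx1 overlapped in wild-type males, as did those of Cat and Gpx1 and of Gpx1 and Sod1 in knockout males. Within each knockout male library, though, Gpx1 exceeded Sod1. In wild-type females Gpx1 and Cat overlapped, while both Cat and Gpx1 were above Sod1. In knockout females Gpx1 exceeded Cat in each library without overlap, and Cat and Sod1 overlapped. The ranges of Gpx4 and Prdx5 overlapped in all 4 groups, and no order of the genes held across them. Within libraries, Prdx5 exceeded Gpx4 in each wild-type female, and Gpx4 exceeded Prdx5 in each knockout library of both sexes. In wild-type males neither gene was higher in every library.

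**Figure D1:**
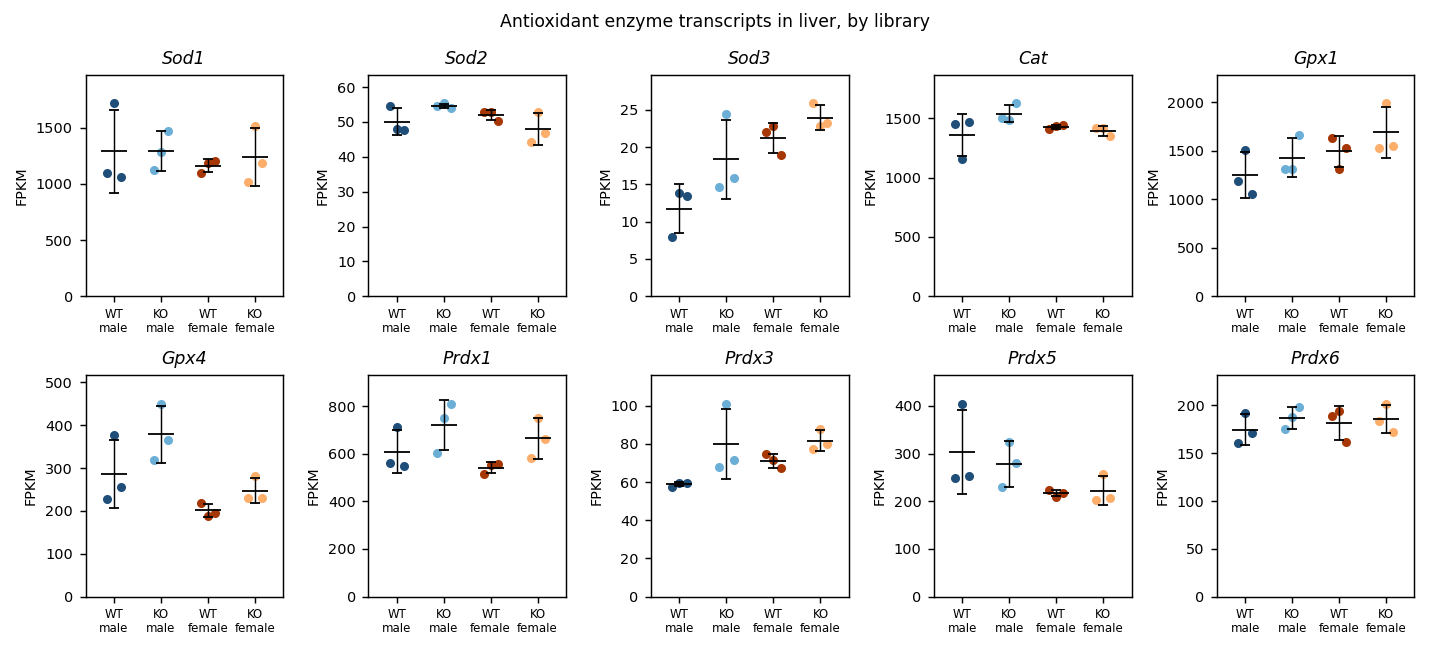
FPKM (linear axis from 0) of each of the 10 antioxidant enzymes in the 3 libraries of each group (points), with the group mean (bar) and SD (whiskers). Sod3 is lowest in wild-type males, Gpx4 lies higher in the males than in the females of the same genotype without passing the test, and wild-type male 2 is the highest library for Sod1 and Prdx5.

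None of the 10 members was called between knockout and wild-type males, where 2.55% of all tested genes were called. None was called between knockout and wild-type females either (0.0174% of all tested genes), nor in the interaction of knockout and sex (0.0261%). At an unadjusted p under 0.05 these comparisons had 3, 0 and 0 members, against 23.9%, 6.13% and 9.03% of all tested genes. Between the sexes, 1 member, Sod3, was called in wild type, where 13.4% of all tested genes were called, and none was called in knockout (3.67%). The last 2 comparisons had 3 members and 1 member at an unadjusted p under 0.05, against 32.8% and 15.5% of all tested genes. The ranges of the 2 groups did not overlap for 3 members between knockout and wild-type males (23.7% of all tested genes), 3 between the female groups (17.6%), 4 between the wild-type sexes (40.2%) and 3 between the knockout sexes (22.1%). The knockout and sex comparisons share libraries, so they are not independent of each other.

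Sod3 encodes the extracellular superoxide dismutase, a secreted copper and zinc enzyme bound to the matrix around cells. Its level was 7.94, 13.8 and 13.4 FPKM in wild-type males 1 to 3 and 22.0, 22.8 and 19.0 in wild-type females. The highest wild-type male lay below the lowest wild-type female. Sod3 was lower in wild-type males by the limma test (log2 difference -0.84, SE 0.21, adjusted p = 0.0264), and 11.1% of all tested genes were called lower in this direction. This corresponds to 0.560 times the female value on the FPKM + 1 scale (95% interval 0.405 to 0.774). The call was lost with median-ratio scaling (-0.55, adjusted p = 0.149) and quantile normalization (-0.68, adjusted p = 0.0667). It was also lost without wild-type male 1 (-0.60, adjusted p = 0.0635), without wild-type female 1 (adjusted p = 0.0871) and without wild-type female 2 (adjusted p = 0.0932), after removal of the trend with transcript length (-0.59, adjusted p = 0.118) and without the 3 libraries that hold traces of the other sex (adjusted p = 0.129).

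In the knockout groups Sod3 was 14.7, 24.5 and 15.9 FPKM in males and 25.8, 22.8 and 23.2 in females. Knockout male 2 reached the range of the females, and the other knockout males did not. The log2 difference between knockout males and females was -0.40 (SE 0.21, limma adjusted p = 0.421). Every knockout male lay above every wild-type male, with a log2 difference of 0.61 (SE 0.21, adjusted p = 0.125) and a scaled value of 0.38 (adjusted p = 0.475). It was 0.37 (adjusted p = 0.223) without wild-type male 1 and 0.39 (adjusted p = 0.383) without knockout male 2. Between the female groups Sod3 differed by 0.17 (SE 0.21, adjusted p = 0.932), and the interaction of knockout and sex was 0.44 (95% interval -0.22 to 1.10, adjusted p = 0.548).

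Markers of 4 of 7 other cell types (sinusoidal endothelium, macrophages, stellate cells and neutrophils) had their lowest sums in wild-type males, with no overlap with the other groups. Markers of the sinusoidal endothelium (8 genes) summed to 70.2 to 80.0 FPKM in wild-type males. Their sums were 109 to 124 in knockout males, and 128 to 147 and 130 to 138 in the wild-type and knockout females. For Kupffer cells and macrophages (12 genes) the sums were 191 to 358, 400.3 to 954, 475 to 732 and 556 to 811 in the same order of groups. For stellate cells, smooth muscle and matrix (11 genes) they were 98.9 to 120, 148 to 231, 156 to 180 and 173 to 208. Of all tested genes, 11.1% were called lower in wild-type males and 2.13% higher in knockout males. Called lower in wild-type males than in wild-type females were 7 of 8 endothelial, 8 of 12 macrophage and 4 of 10 tested stellate genes. Called higher in knockout than in wild-type males were 5 of 8, 6 of 12 and 1 of 10. After median-ratio scaling these counts were 6, 5 and 0 between the wild-type sexes (3.96% of all tested genes) and 4, 1 and 0 between the male groups (0.591%). No gene of the first 3 lists was at 0 in all libraries of a group. The sums of red cell, lymphocyte and cholangiocyte markers overlapped between wild-type males and the other groups, except for cholangiocytes in knockout females. Their median log2 differences between knockout and wild-type males were -0.30, -0.03 and 0.15, against 0.19 for all tested genes. For neutrophils, with 2 tested genes, the sums were 1.80 to 3.36 FPKM in wild-type males and 3.40 to 7.67 in knockout males. Hepatocyte sums were lowest in knockout males, as given above. Within groups the sums followed Sod3 in some libraries and not in others. Knockout male 2, the knockout male with the most Sod3, had the highest macrophage sum (954) and the highest stellate sum (231). It also had the highest endothelial sum of its group (124). Wild-type male 1, with the least Sod3 of all libraries, had the lowest macrophage sum of all (191) but the highest endothelial sum of its group (80.0). Knockout female 1, with the most Sod3, had the highest endothelial sum of its group (138) but the lowest macrophage sum of its group (556). The stellate sums of these libraries (108 and 197) were in the middle of their groups. The part of these cells in the Sod3 values was not tested, and in bulk tissue fewer cells of a type and less RNA per cell cannot be told apart. The genes whose scaled profile was most like that of Sod3 over the 12 libraries were Necap2 (Pearson r = 0.95), Plvap (r = 0.93), which encodes a protein of the diaphragms of endothelial cells, and Tmem86a (r = 0.93).

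**Figure D2:**
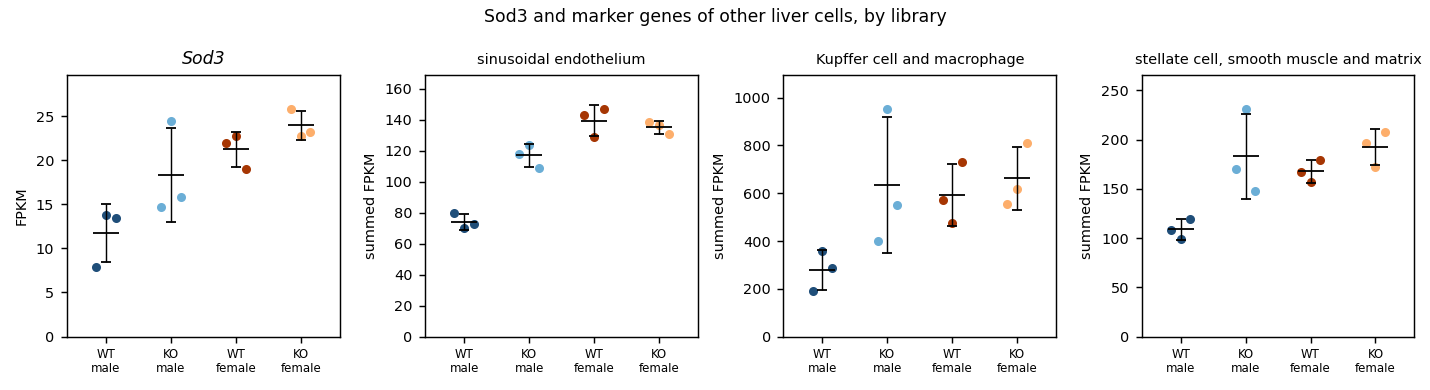
FPKM of Sod3 and summed FPKM of the marker genes of sinusoidal endothelium, of Kupffer cells and macrophages and of stellate cells, smooth muscle and matrix (linear axes from 0) in the 3 libraries of each group (points), with mean and SD. Wild-type males are the lowest group in all 4 panels, with endothelial sums of 70.2 to 80.0 against 128 to 147 in wild-type females.

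Sod1, the copper and zinc dismutase of the cytosol, was 1094, 1716 and 1060.1 FPKM in wild-type males and 1125, 1284 and 1475 in knockout males. It was 1100.0, 1183 and 1205 in wild-type females and 1014, 1517 and 1182 in knockout females. The groups overlapped in every comparison, and wild-type male 2, the library with the fewest long transcripts, was the highest of the 12. Knockout and wild-type males differed by 0.03 on the log2 scale (SE 0.20, limma adjusted p = 0.934, 95% interval of the fold 0.754 to 1.39). The female groups differed by 0.07 (SE 0.20, adjusted p = 0.971).

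Sod2, the manganese dismutase of the mitochondrial matrix, was the steadiest member, with a coefficient of variation of 7.12% over the 12 libraries. It was 54.5, 48.0 and 47.7 FPKM in wild-type males, 54.5, 55.3 and 53.9 in knockout males, 52.7, 52.9 and 50.3 in wild-type females and 44.1, 53.0 and 46.9 in knockout females. All 3 knockout males were above all 3 knockout females, and the groups overlapped in the other comparisons made. The knockout males were also above all wild-type females, a pair that differs in both genotype and sex and was not compared. The difference between knockout males and females was 0.19 (SE 0.10, limma adjusted p = 0.437). Knockout against wild type gave 0.12 in males (SE 0.10, adjusted p = 0.465) and -0.12 in females (SE 0.10, adjusted p = 0.903). In every library Sod1 exceeded Sod2, by 20.1 to 35.8 times per length. The ratio was highest in wild-type male 2 (35.8), knockout female 2 (28.7) and knockout male 3 (27.4), the libraries poorest in long transcripts.

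Catalase was 1456, 1157 and 1466 FPKM in wild-type males and 1507, 1489 and 1625 in knockout males. It was 1411, 1436 and 1440.0 in wild-type females and 1418, 1421 and 1348 in knockout females. Each knockout male was above each wild-type male and each knockout female, and the lowest library was wild-type male 2. Neither difference was called: knockout males exceeded wild-type males by 0.19 (SE 0.12, limma adjusted p = 0.336), which is the median of all tested genes, and the scaled value was -0.06. The fold was 1.14 with a 95% interval of 0.954 to 1.36. Between knockout males and females the difference was 0.14 (SE 0.12, adjusted p = 0.649). The female groups differed by -0.03 (SE 0.12, adjusted p = 0.975).

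Gpx1, the abundant glutathione peroxidase of cytosol and mitochondria, was 1189.9, 1512 and 1052 FPKM in wild-type males and 1312, 1313 and 1665 in knockout males. It was 1633, 1315 and 1528 in wild-type females and 1529, 1987 and 1549.9 in knockout females. Its ranges overlapped in all 4 pairs of groups. The difference between knockout and wild type was 0.20 in males (SE 0.17, limma adjusted p = 0.479) and 0.17 in females (SE 0.17, adjusted p = 0.913). The male minus female difference was -0.26 in wild type (SE 0.17, adjusted p = 0.297) and -0.24 in knockout (SE 0.17, adjusted p = 0.588). With quantile normalization, the wild-type difference between the sexes was -0.57 and was called (adjusted p = 0.0191), while with median-ratio scaling it was 0.04 (adjusted p = 0.937).

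Gpx4, which reduces lipid hydroperoxides within membranes and restrains ferroptosis, was 229, 377 and 255 FPKM in wild-type males and 319.6, 450 and 365 in knockout males, against 219, 188 and 195 in wild-type females and 230.1, 281 and 230.4 in knockout females. Males lay above females of their genotype without overlap in both genotypes. The difference between the sexes was 0.48 in wild type (SE 0.19, limma adjusted p = 0.106) and 0.60 in knockout (SE 0.19, adjusted p = 0.119), and neither was called. The scaled values were 0.78 (adjusted p = 0.0633) and 0.64 (adjusted p = 0.206).

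Some alternatives called Gpx4 between the sexes. In knockout it was called with quantile normalization (adjusted p = 0.0203), with array weights (adjusted p = 0.036), after removal of the trend with transcript length (adjusted p = 0.0133) and without wild-type male 2 (adjusted p = 0.0322), whose values enter through the shared estimate of the spread. It was not called there in the other 20 alternatives, with an adjusted p of up to 0.502. In wild type it was called with quantile normalization (adjusted p = 0.0465) and after removal of the length trend (adjusted p = 0.0129). There the difference fell to 0.27 (adjusted p = 0.296) without wild-type male 2, and to 0.31 (adjusted p = 0.252) with array weights. Between knockout and wild-type males Gpx4 differed by 0.42 (SE 0.19, limma adjusted p = 0.205) with overlapping ranges, and by 0.17 after scaling. The knockout females all lay above the wild-type females, with a difference of 0.29 (SE 0.19, adjusted p = 0.869).

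The ratio of Gpx4 to Gpx1 compares the 2 selenocysteine enzymes within a library and so does not depend on the scaling between libraries. Their transcripts have similar lengths, 995 and 1072 bases. In males the ratio was 0.192 to 0.249 in wild type and 0.219 to 0.343 in knockout. In females it was 0.128 to 0.143 and 0.141 to 0.151, respectively. All 6 male libraries were above all 6 female libraries, and the ranges of the 2 male groups overlapped. This ratio was chosen after its values were seen and is given as a description with no test. It shows that the 2 transcripts stood in a different proportion in the sexes, not which of them differed.

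**Figure D3:**
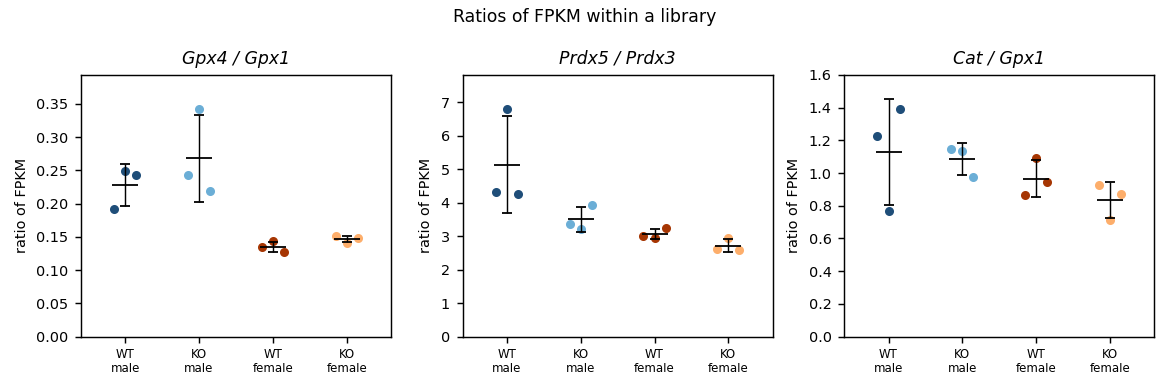
Ratios of FPKM within each library for Gpx4 to Gpx1, Prdx5 to Prdx3 and Cat to Gpx1 (linear axes from 0) in the 3 libraries of each group (points), with mean and SD. For Gpx4 to Gpx1 all male libraries (0.192 to 0.343) lie above all female libraries (0.128 to 0.151).

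Prdx1, the main cytosolic peroxiredoxin, was 562, 713 and 551 FPKM in wild-type males and 605, 749 and 811 in knockout males. It was 515, 554 and 556 in wild-type females and 582, 753 and 661 in knockout females. The female groups did not overlap, and the male groups did. The knockout difference was 0.29 in females (SE 0.15, limma adjusted p = 0.833) and 0.24 in males (SE 0.15, adjusted p = 0.330), where the scaled value was 0.00.

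Prdx3, the peroxiredoxin of the mitochondrial matrix, was 57.6, 59.4 and 59.7 FPKM in wild-type males and 67.7, 101 and 71.3 in knockout males. It was 74.9, 71.3 and 67.3 in wild-type females and 77.5, 87.8 and 79.9 in knockout females. Knockout lay above wild type without overlap in both sexes, and wild-type males lay below wild-type females. With Sod3 and Cat it was 1 of 3 members whose knockout and wild-type males did not overlap. The knockout difference was 0.41 in males (SE 0.14, limma adjusted p = 0.116) and 0.20 in females (SE 0.14, adjusted p = 0.887). Scaled, these were 0.17 (adjusted p = 0.640) and 0.22 (adjusted p = 0.838), and without knockout male 2 the difference in males was 0.24 (adjusted p = 0.337). Wild-type males and females differed by -0.27 (SE 0.14, adjusted p = 0.207), which scaling turned to 0.03.

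Prdx5, a peroxiredoxin found in mitochondria, peroxisomes and cytosol, was 249, 404 and 254 FPKM in wild-type males and 229, 325 and 279 in knockout males. It was 224, 209.8 and 218 in wild-type females and 203, 258 and 206 in knockout females. All wild-type males were above all wild-type females, with wild-type male 2 far above the other libraries, and the groups overlapped in the other comparisons made. Knockout males were also above all wild-type females, a pair that was not compared. Between the wild-type sexes it differed by 0.44 (SE 0.19, limma adjusted p = 0.139) and was not called. It was called with quantile normalization (0.45, adjusted p = 0.0494) and after removal of the length trend (0.58, adjusted p = 0.0294), and it was 0.21 (adjusted p = 0.403) without wild-type male 2. Prdx5 was the 1 member with a negative difference between knockout and wild-type males (-0.10, SE 0.19, adjusted p = 0.762). The Prdx5 to Prdx3 ratio, a description chosen after its values were seen, was 4.25 to 6.81 (wild type) and 3.22 to 3.92 (knockout) in males, and 2.94 to 3.23 and 2.58 to 2.94 in females.

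Prdx6, a peroxiredoxin that uses glutathione and also has phospholipase activity, was 160.3, 192 and 171 FPKM in wild-type males and 176, 188 and 198 in knockout males. It was 189, 194 and 162 in wild-type females and 184, 202 and 172 in knockout females. The groups overlapped in every pair. Its differences ran from -0.06 between the wild-type sexes to 0.10 between knockout and wild-type males (SE 0.12 in both, limma adjusted p = 0.762 and 0.596). The fold between knockout and wild-type males was 1.07 with a 95% interval of 0.899 to 1.28.

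**Figure D4:**
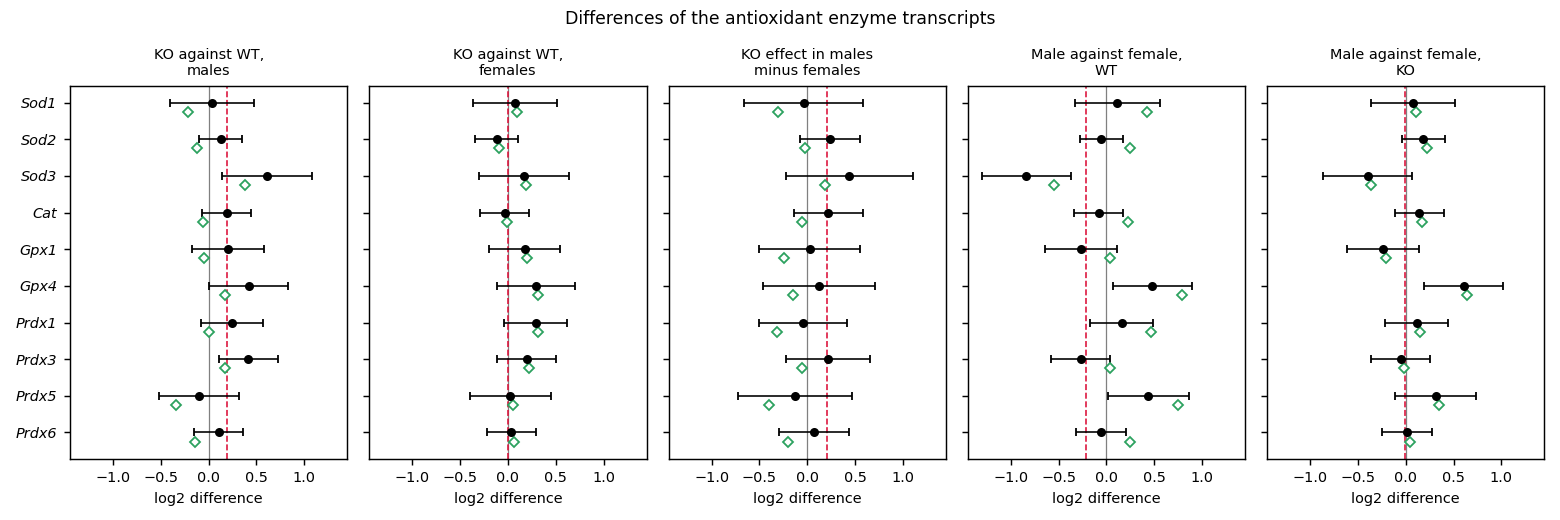
Log2 differences (linear axis) of the 10 members in the 5 comparisons, as limma estimates with 95% intervals (black), with the value after median-ratio scaling (green diamonds) and the median of all 11514 tested genes (dashed red line). In males the knockout differences centre on the median of all genes (0.19), and the Sod3 difference between the wild-type sexes (-0.84) is the farthest from 0.

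Over the whole family, knockout against wild-type males gave 9 positive differences and 1 negative, with a median of 0.19, equal to that of all tested genes. After scaling, 3 were positive and 7 negative, with a median of -0.05. Between the female groups 8 were positive and 2 negative, with a median of 0.12 against 0.00 for all tested genes, and scaling left this at 8 and 2 with a median of 0.14. Males against females in wild type gave 4 positive and 6 negative differences, which scaling turned to 9 and 1, with medians of -0.06 and 0.25. In knockout the split between the sexes was 7 and 3 before and after scaling. The interaction gave 7 positive and 3 negative differences, and 1 and 9 after scaling. Scaling changed the sign of 6 members between the male groups, of 5 between the wild-type sexes and of 6 in the interaction, the comparisons that include the wild-type males, and of 0 in the other comparisons. Sod3, Gpx4, Prdx3 and Prdx5 kept their sign between the male groups, and Sod3, Sod1, Gpx4, Prdx1 and Prdx5 between the wild-type sexes.

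The members varied among the 12 libraries by 7.12% (Sod2) to 29.6% (Gpx4), as the coefficient of variation of FPKM. The median was 17.0% for the members and 20.9% for all tested genes, and 7 of the 10 lay below the latter. Cat (7.62%) and Prdx6 (7.67%) were nearly as steady as Sod2, and Sod3 (29.5%) varied as much as Gpx4. The lowest Sod3 value, 7.94 FPKM in wild-type male 1, was exceeded 3.25-fold by the highest, 25.8 in knockout female 1.

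After median-ratio scaling, most members deviated upwards in the 3 libraries poorest in long transcripts (wild-type male 2, knockout male 3 and knockout female 2). Of the 10 members, 8 lay above their mean in all 3, and in Sod1, Gpx1, Prdx1 and Prdx6 all 3 lay above each of the other 9 libraries. The share of all tested genes that did so was not computed, so these counts cannot be read as a trait of the members. Unscaled, Sod2 and Prdx3, which are among the 8, lay below their mean in wild-type male 2 (-0.09 and -0.27). Transcript lengths, taken from the longest matching annotated transcript, were 641, 1072, 2294 and 2387 bases for Sod1, Gpx1, Prdx1 and Prdx6. In Gpx4 (995 bases), Prdx5 (1262 bases) and Prdx3 (1478 bases) the 3 libraries did not all lie above the others. Over the 12 libraries, the Pearson correlation of a member's scaled deviation with the slope ran from -0.87 (Sod1) to -0.26 (Cat). It was -0.63 for Gpx4 and -0.75 for Prdx5. Sod1, with a transcript of 641 bases the shortest member, deviated by 0.30 to 0.88 on the log2 scale in those 3 libraries and by -0.41 to -0.06 in the others. Prdx5 (1262 bases) reached 1.10 in wild-type male 2. Sod2, with 5861 bases the longest member, deviated by 0.05 to 0.31 in the 3 libraries, within a range of -0.33 to 0.20 in the others for 2 of the 3. Cat (2613 bases) and Sod3 (3738 bases) were on both sides of 0 in the 3 libraries. The part of transcript length in these deviations was not tested, since each library has 1 slope.

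**Figure D5:**
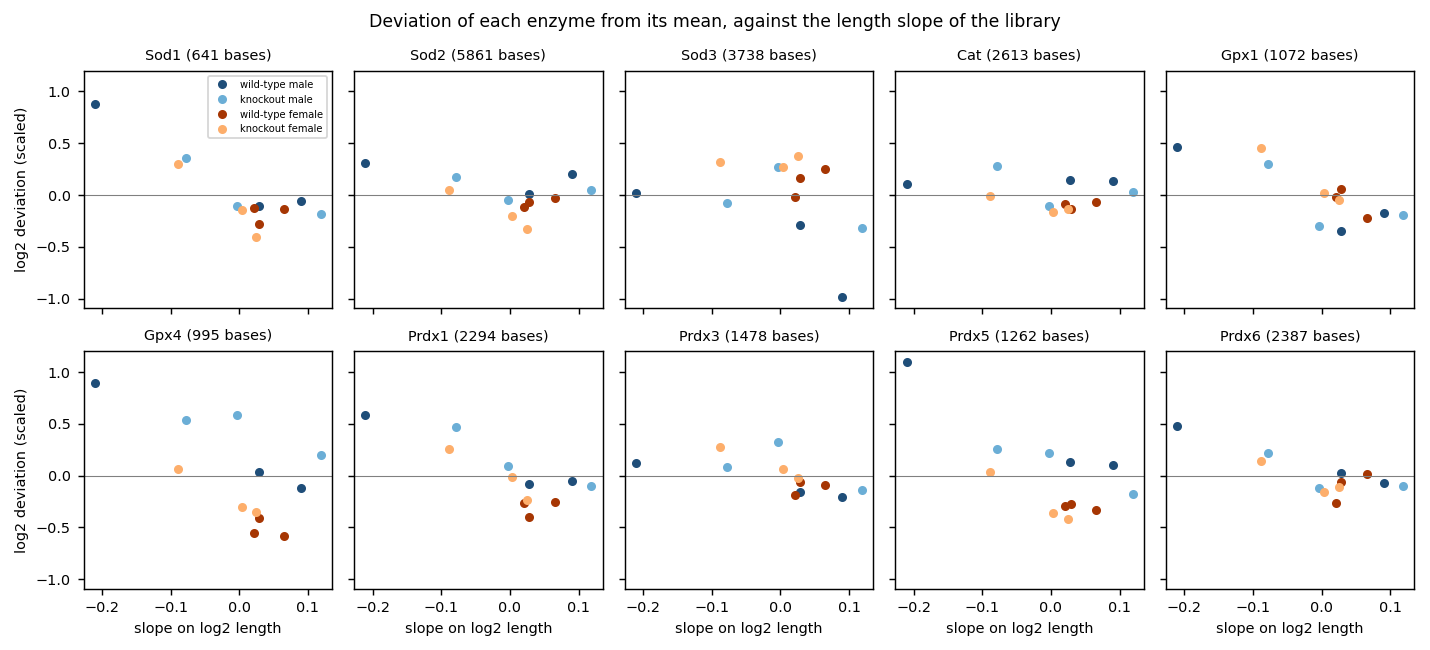
Log2 deviation of each member from its mean over the 12 libraries after median-ratio scaling, against the slope of the library's deviations on log2 transcript length, with transcript lengths in the panel titles and points coloured by group. The leftmost point, wild-type male 2 (slope -0.210), is the highest for Sod1, Prdx1, Prdx5 and Prdx6 among others, and Cat stays within -0.16 to 0.28.

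Genes with the profile most like each member over the 12 libraries were listed by Pearson correlation of scaled log2(FPKM + 1), as a description in which all genes share the same libraries. For Sod1 they were Krtcap2, Pop5 and Sra1, and for Gpx4 they were 1110008P14Rik, Arpp19 and Taldo1, all at r = 0.98. Prdx1 was closest to Tma7 (r = 0.99), Uchl3 and Zcrb1 (both 0.98), and Prdx5 to Pdap1 (0.99), Ndufc1 and Rpl36al (both 0.97). Prdx6 was closest to Mettl7b and Slc25a39 (both 0.97) and Dctn2 (0.96). For Gpx1 they were Ilk (0.94), Mrps17 and Bace2 (both 0.93), for Cat Nsun4 (0.94), Naa60 (0.93) and Mfsd8 (0.92), and for Sod2 Ces1f, Pitpnb and Abhd6 (all 0.93). Prdx3 had the least close neighbours, with Pdss1 and Guca1a (both 0.91) and Psmg4 (0.90).

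The members and the genes around them were counted in 9 lists. Between knockout and wild-type males 7 of the 9 lists had no called gene, beside 2.55% of all tested genes called. No test compared the lists with that share. Of 8 genes for catalase and peroxisome assembly 1 was called, Pex11a, a membrane protein that drives the division of peroxisomes. Its level was 16.1 to 33.2 FPKM without and 48.7 to 64.8 with the knockout, and it rose by 1.28 on the log2 scale (SE 0.25, limma adjusted p = 0.0283). The call was kept in 14 of 24 alternatives, and the adjusted p was 0.0524 to 0.205 in the other 10, which include leaving out wild-type male 2 or 3 or knockout male 1 or 2. Of 18 tested genes that make hydrogen peroxide or superoxide 1 was called, Hao2, a peroxisomal 2-hydroxy acid oxidase, which was listed at 0.08 to 0.25 FPKM in the wild-type group and at 1.40 to 3.85 in the knockout group. It rose by 1.46 (SE 0.26, adjusted p = 0.021), and the call was kept in 19 of 24 alternatives, with an adjusted p of 0.0525 to 0.118 in the others, among them leaving out wild-type male 1 or 3 or knockout male 2.

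The lists with no call in males held some larger estimates with adjusted p-values above the threshold. In the thioredoxin system (8 genes) Srxn1, which restores overoxidized peroxiredoxins, had 0.98 (SE 0.27, limma adjusted p = 0.0737, scaled 0.76) and Txnrd1 had 0.55 (SE 0.19, adjusted p = 0.124, scaled 0.31). In glutathione supply and recycling (15 genes) Gss, the glutathione synthetase, had 0.41 (adjusted p = 0.0739, scaled 0.17) and Slc7a11, the cystine transporter, had 0.82 (adjusted p = 0.0906, scaled 0.60). In selenoprotein supply (8 genes) Scly had 0.46 (adjusted p = 0.0717, scaled 0.21) and Sepp1, the plasma selenium carrier, had 0.40 (adjusted p = 0.0908, scaled 0.16). Among 10 regulators Nfe2l1 had 0.64 (adjusted p = 0.0999, scaled 0.41), beside Nfe2l2 as given above. Of the other peroxiredoxins Prdx4, which resides in the endoplasmic reticulum, had -0.49 (adjusted p = 0.110, scaled -0.73), and of the other glutathione peroxidases Gpx3 had 0.23 (adjusted p = 0.428, scaled 0.02). After scaling the adjusted p of these genes was 0.160 (Prdx4) to 0.983 (Gpx3).

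Between the female groups none of the 9 lists had a called gene, beside 0.0174% of all tested genes. Neither did any list in the interaction (0.0261%). The smallest p-values in females belonged to Nnt, the mitochondrial transhydrogenase (-0.77, SE 0.23, limma adjusted p = 0.593), and to Bach1, a repressor of antioxidant genes (-0.68, SE 0.27, adjusted p = 0.780). In the interaction Pex11a had 1.26 (SE 0.36, adjusted p = 0.433) and Hao2 had 1.35 (SE 0.37, adjusted p = 0.433). A difference of the knockout effect between the sexes was therefore not shown for either gene.

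Between wild-type males and females 7 of 18 genes that make peroxide or superoxide were called, beside 13.4% of all tested genes. Of the 7, 4 were higher and 3 lower in males, and after scaling 5 were higher and 2 lower (9.33% of all tested genes called). Hao2 was lower in males, at 0.08 to 0.25 FPKM against 31.0 to 37.9 in females (log2 difference -4.89, SE 0.26, limma adjusted p = 9.39e-07). Its relative Hao1, the glycolate oxidase, was higher in males, at 103 to 112 FPKM against 44.5 to 51.9 (1.13, SE 0.15, adjusted p = 0.000646). Also higher were the aldehyde oxidases Aox1 (1.06, adjusted p = 0.00602) and Aox3 (1.13, adjusted p = 0.00926) and the NADPH oxidase Nox4 (1.64, adjusted p = 0.0121). Maob, a monoamine oxidase of the mitochondrial outer membrane, was lower (-0.88, adjusted p = 0.00389). The calls of Hao2, Hao1, Aox1 and Maob were kept in all 24 alternatives. That of Nox4 was lost without wild-type female 1 (adjusted p = 0.0501), and those of Nox4 and Aox3 without the 3 libraries that hold such traces of the other sex (adjusted p = 0.0778 and 0.0718).

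In the thioredoxin system 2 of 8 genes were lower in wild-type males: Txnip, the inhibitor of thioredoxin (14.8 to 21.1 against 46.1 to 92.3 FPKM, log2 difference -1.93, SE 0.26, limma adjusted p = 0.000751), and the mitochondrial reductase Txnrd2 (-0.65, SE 0.12, adjusted p = 0.00629). Scly, a selenocysteine lyase, was lower in 1 call among 8 selenoprotein supply genes (-0.66, SE 0.13, adjusted p = 0.00656). These counts stand beside 11.1% of all tested genes called lower in wild-type males. The Txnip call was kept in all 24 alternatives. With median-ratio scaling Txnrd2 had -0.36 (adjusted p = 0.193) and Scly -0.36 (adjusted p = 0.114), so neither was called. Glutathione supply and recycling had 0 calls of 15, beside 13.4% of all tested genes called in either direction. After scaling 3 were called higher, beside 9.33% of all tested genes called in either direction. Among them was Gclc, the catalytic subunit of glutamate-cysteine ligase (0.95, adjusted p = 0.0294, against 0.65 and 0.132 unscaled).

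In the knockout sexes 5 of 18 source genes were called, 4 higher and 1 lower in males, beside 3.67% of all tested genes. Hao2 was again lower (-3.54, SE 0.26, limma adjusted p = 2.56e-05), and Aox1 (1.38, adjusted p = 0.00243), Aox3 (1.21, adjusted p = 0.0127), Hao1 (0.65, adjusted p = 0.0311) and Ero1lb, an oxidase of the endoplasmic reticulum (0.80, adjusted p = 0.0478), were higher. The Hao2 and Aox1 calls were kept in all 24 alternatives, that of Hao1 in 14 (it was lost, among others, without wild-type male 3, knockout male 1 or 3, wild-type female 1, or knockout female 1 or 3, at an adjusted p of up to 0.377) and that of Ero1lb in 8 (up to 0.327), and leaving out any 1 of 10 libraries ended the Ero1lb call. Aox3 was lost without knockout male 1 (adjusted p = 0.0586), without knockout female 3 (adjusted p = 0.0572) or without the 3 libraries that hold such traces of the other sex (adjusted p = 0.169). Pex11a was higher in males, at 48.7 to 64.8 FPKM against 20.5 to 30.3 in females (1.24, SE 0.25, adjusted p = 0.0191), a call kept in 20 of 24 alternatives and lost without knockout male 1 or 2 or knockout female 2 or 3 (adjusted p = 0.0566 to 0.0796). Gpx7, a glutathione peroxidase of the endoplasmic reticulum at no more than 1.55 FPKM in any library, was lower in males (-0.57, adjusted p = 0.0294). It lay below 1 FPKM in every male library (at most 0.83), so it passed the filter only through the females. Its call therefore cannot be used as support for a difference between the sexes. Txnrd2 was also lower in males (-0.56, adjusted p = 0.0261). Both calls were lost in 10 alternatives, of 23 for Gpx7 and 24 for Txnrd2. The filter on a mean of at least 5 FPKM left Gpx7 out. The Gpx7 call was lost, among others, without knockout male 1 or 3, wild-type female 1 or 2, or knockout female 1 or 2. That of Txnrd2 was lost, among others, without knockout male 1 or 2 or any 1 knockout female. The highest adjusted p was 0.321 for Gpx7 and 0.123 for Txnrd2.

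The members lie on 9 chromosomes of GRCm38. Sod1 spans chromosome 16, 90220762 to 90226333 (plus strand, 5 exons), Sod2 chromosome 17, 13007839 to 13018119 (plus, 5 exons), and Sod3 chromosome 5, 52363804 to 52369738 (plus, 2 exons). Cat spans chromosome 2, 103453904 to 103485153 (minus, 13 exons), Gpx1 chromosome 9, 108339080 to 108340342 (plus, 2 exons), and Gpx4 chromosome 10, 80047166 to 80056439 (plus, 7 exons). Prdx3 spans chromosome 19, 60864066 to 60874538 (minus, 7 exons), and Prdx6 chromosome 1, 161240112 to 161251210 (minus, 5 exons). Some members share sequence with other loci. Prdx5 (chromosome 19, 6906697 to 6910106, minus strand, 6 exons) overlaps Trmt112 by 409 bases, and Trmt112 was listed at 22.1 to 34.5 FPKM. Prdx1 (chromosome 4, 116685599 to 116700000, plus strand, 6 exons) overlaps the noncoding AV051173 by 424 bases, which was listed at no more than 0.55 FPKM. Whether the counting used strand is not stated, so reads in these overlaps cannot be assigned. Coding sequence of at least 90% identity over at least 100 bases occurs at 1 other locus for Sod1, 2 for Gpx4, 3 for Prdx1 and 1 for Prdx6. The closest were Gpx4-ps2 (99.6%), Gm21399 for Prdx1 (98.3%) and Gm8566 for Sod1 (97.8%), and the values of these members are uncertain where reads could be split. Prdx6b, the copy of Prdx6, was listed at no more than 0.02 FPKM. The remaining members, Sod2, Sod3, Cat, Gpx1, Prdx3 and Prdx5, had no such copy in the annotation.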

How the data were processed

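RNA was measured in 12 mouse liver libraries, 3 in each of 4 groups taken from the labels. Per the labels' protocols, mRNA was pulled down on oligo(dT) magnetic beads and reverse transcribed from random hexamers. The authors deposited FPKM values rounded to 2 decimals, per the file headers. TopHat2 and mm10 are named in the submitters' processing notes; for the quantifier and annotation release the sources used here name nothing, and read totals were not used. The filter (1 FPKM or more in 3 or more libraries) left 11514 genes, tested with limma 3.58.1 in R 4.3.3 on log2(FPKM + 1), with 1 mean per group over 12 libraries, moderated variances with a trend, two-sided tests and Benjamini-Hochberg adjustment. A fold change on this scale understates that of low genes. The test was checked on simulated data with independent normal noise for each gene. That simulation held no shifts between libraries and no length trends, so it does not show how the calls respond to them. The members, gene lists and tests were chosen with earlier results of these data known. The text names all 10 members in every comparison; of each list, called genes up to 6 by smallest p, or some of those with the smallest p where none was called; the 3 genes most like each member; and Oxr1. Gene positions, transcripts and overlaps came from GENCODE M21 and RefSeq tables, and near copies from blastn 2.17.0. Among genes with a mean of at least 5 FPKM, at most 0.378% of the values of any pair of libraries were identical. All were therefore kept as separate samples. Alternatives were another pseudocount, other filters, median-ratio scaling, quantile normalization, the replicate number as a block, array weights, no variance trend, a fit of the compared groups alone and leaving out each library. Removing the length trend and leaving out 2 sets of 3 libraries were added after seeing the data.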

Additional observations from a re-analysis of the deposited data

How the results depend on the processing

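No member was called between knockout and wild type in males, in females or in the interaction under any alternative run (the fit of only the groups compared cannot be made for the interaction). Between the wild-type sexes the number called (1) was 0 with median-ratio scaling, 3 with quantile normalization (Gpx1, Gpx4 and Prdx5, without Sod3), 2 after removal of the length trend, 0 without the 3 libraries that hold traces of the other sex, and 0 to 1 leaving out each library in turn. Between the knockout sexes (0) it was 1 with quantile normalization, array weights or the length trend removed, and 0 to 1 leaving out each library. Same-numbered samples deviated together in some pairs of groups and not in others. For replicate 1 the correlation of their deviations was 0.57 between the male groups and 0.42 between the knockout sexes. The best correlations with another number were 0.34 and -0.03. For replicate 3 the same-numbered values were -0.30 and -0.33, against 0.43 and 0.44. Between the female groups and between the wild-type sexes all same-numbered values were negative. Whether the replicate numbers pair the samples was not tested. With the replicate block 1 member was called between the wild-type sexes, as without it. Of 1190 recomputed member differences, 1079 kept direction and side of the threshold, 95 changed sign without being called in either fit, 7 lost the call and 9 gained it, and 0 called differences changed sign. The cause of these changes was not tested. Genes called among all tested numbered 294 (3 to 570 over the alternatives; 145 with median-ratio scaling, 140 with quantile normalization, 174 with no filter, 63 with array weights, 132 with the replicate block, 3 with only the groups compared), 2 (0 to 229), 3 (1 to 22), 1539 (525 to 2081) and 423 (123 to 724) in the order males, females, interaction, wild-type sexes, knockout sexes. Median-ratio scaling moved the split of these calls from 245 of 294 to 68 of 145 higher in knockout males, and from 1273 of 1539 to 456 of 1074 lower in wild-type males than females. Depth is unknown, so no counting error could be given.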
